A study of Homo sapiens with 183 samples.

Results

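The DNA replication genes are 48 named genes that encode the parts of the chromosome copying machinery and the steps around it, 48 of the 19875 gene names in each table of the series, and they were taken by name from all 8 tables. They fall into 9 roles. The 10 licensing genes load the replicative helicase (ORC1, ORC6, CDC6, CDT1 and MCM2 to MCM7), and the 8 helicase activation genes switch it on (MCM10, CDC45, GINS1 to GINS4, CDC7 and DBF4). The 8 primase and polymerase genes make DNA (POLA1, POLA2, PRIM1, PRIM2, POLE, POLE2, POLD1 and POLD3), 5 encode the sliding clamp and its loader (PCNA, RFC2 to RFC5), 3 encode RPA, which covers single-stranded DNA (RPA1 to RPA3), and 2 finish the lagging strand (FEN1 and LIG1). The remaining 12 supply nucleotides (RRM1, RRM2, TYMS and TK1), copy chromatin behind the fork (CHAF1A, CHAF1B, UHRF1 and SLBP, which binds histone mRNA) or control the entry into S phase (CCNE1, CCNE2, E2F1 and DTL). All 48 passed the filter of a mean of 1 TPM in each of the 16 fits, so no member dropped out of any comparison.

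Messenger RNA was measured in 183 libraries of 9 established human cancer cell lines. AsPC-1 and SUIT-2 are pancreatic lines of the classical type, T3M-4 and BxPC-3 are pancreatic lines of the basal-like type, CFPAC-1 is a further pancreatic line, T84 is a colorectal line, A375 a melanoma line, H1048 a tuft-like small-cell lung line and RH30 a rhabdomyosarcoma line. In the knockout experiments, cells that stably expressed Cas9 received a guide RNA and were collected on day 5. The control guide, sgRosa, targets the ROSA26 locus per the paper, so the controls carry Cas9 and a guide as well. Whether it cuts DNA in these human lines is not shown by these data. In the drug experiments, cells were collected after 24 h in CB-6644, an inhibitor of the ATPase activity of RUVBL1 and RUVBL2, or in its solvent DMSO. KLF5 (sgKLF5) was knocked out in AsPC-1 (experiment 1 with 6 libraries against 2 sgRosa, experiment 3 with 4 against 4), T3M-4 and BxPC-3 (each in experiment 1 with 4 against 2 and in experiment 2 with 4 against 4), SUIT-2 (4 against 4) and CFPAC-1 (3 against 4). RUVBL1 (sgRUVBL1) was knocked out in AsPC-1 experiments 2 and 3, BxPC-3 experiment 2 and CFPAC-1 with 4 libraries each and in T3M-4 experiment 2 with 3, each against 4 sgRosa libraries. RUVBL2 (sgRUVBL2) was knocked out alongside, with 4 libraries in AsPC-1 experiment 3 and T3M-4 experiment 2, 3 in BxPC-3 experiment 2 and 2 in CFPAC-1. The groups sgCDK1 and sgRpa3, in which a gene required for cell division is cut, held 2 libraries each in AsPC-1 experiment 3, BxPC-3 experiment 2, T3M-4 experiment 2 and CFPAC-1, and sgRpa3 also 2 in experiment 1 of T3M-4 and BxPC-3. In AsPC-1, sgCHD4 (4 libraries, with 4 sgRosa libraries of its own) and sgSERPINB5 (4 libraries, experiment 2) completed the knockouts. AsPC-1 and T3M-4 carrying a lentiviral empty vector (EV), RUVBL1 A62T or RUVBL2 dF109, the last 2 of which are resistance variants added to cells that keep their own RUVBL1 and RUVBL2, gave 3 libraries each in CB-6644 and 1 each in DMSO, and the 3 DMSO libraries of a line served as its control. T84, A375, H1048 and RH30 gave 4 libraries each in CB-6644 and in DMSO. For knockouts of KLF5, RUVBL1, RUVBL2 and ROSA26 in several of these lines, the paper states 2 guides per gene. In its RUVBL1 and RUVBL2 experiments it gives 2 replicates for each guide. The labels do not say which guide a library carries. The fits took the libraries of a group as independent, although those with the same guide need not be. The study calls the replicates of several of its knockout experiments biological, while the labels do not say for each library whether it came from a separate culture, so p-values measure the spread between these libraries, guides included.

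Replication starts with licensing. In G1, ORC, CDC6 and CDT1 place pairs of MCM2-7 rings on DNA. At the start of S phase the kinases CDC7-DBF4 and cyclin E-CDK2 recruit CDC45 and GINS to each ring, which turns it into the active helicase of the fork. Polymerase alpha with its primase begins each strand, polymerases epsilon and delta extend it on the clamp PCNA, RPA guards the exposed template, and ribonucleotide reductase, of which RRM2 is the small and cell cycle regulated subunit, provides the building blocks. Most of these genes are transcribed shortly before and during S phase under E2F factors and are silent in resting cells, which is why their RNA is widely read as a sign of proliferation. In bulk RNA, fewer cells in S phase and less RNA per cell cannot be told apart. RUVBL1 and RUVBL2 are paired AAA+ ATPases found in chromatin remodelling and chaperone complexes, KLF5 is an epithelial transcription factor, CDK1 is the kinase that drives mitosis, and RPA3 is the smallest RPA subunit and itself a member.

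Promoter sequence is printed for 8 of the members whose RNA moved most often over the comparisons below, since shared letters are a first thing to look for when genes move together. Each line is the 150 bases that end at the base before the outermost start listed by RefSeq for the gene (GRCh38.p14), 5′ to 3′ on the strand of the gene, and capitals mark the letters of an E2F-type motif (TTTCCCGC, TTTGGCGC, TTTCGCGC or TTTGCCGC, on either strand, overlaps included) or of CCAAT on either strand. RRM2 (chr2:10122418-10122567, plus strand), MCM3 (chr6:52284743-52284892, minus strand), MCM7 (chr7:100101398-100101547, minus strand) and MCM6 (chr2:135876444-135876593, minus strand) were lower most often, and ORC6 (chr16:46689509-46689658, plus strand), RFC5 (chr12:118016553-118016702, plus strand), E2F1 (chr20:33686386-33686535, minus strand) and DTL (chr1:212035598-212035747, plus strand) were among those higher most often.
RRM2: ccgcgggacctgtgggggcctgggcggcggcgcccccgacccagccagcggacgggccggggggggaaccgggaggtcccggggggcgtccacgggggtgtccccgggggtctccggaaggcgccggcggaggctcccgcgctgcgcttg
MCM3: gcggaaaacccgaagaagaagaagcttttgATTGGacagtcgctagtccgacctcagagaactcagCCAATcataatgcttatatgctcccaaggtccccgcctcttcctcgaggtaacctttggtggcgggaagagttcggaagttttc
MCM7: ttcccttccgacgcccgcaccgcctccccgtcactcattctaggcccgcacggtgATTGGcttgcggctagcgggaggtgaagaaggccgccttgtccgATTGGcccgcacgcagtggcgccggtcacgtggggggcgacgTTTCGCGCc
MCM6: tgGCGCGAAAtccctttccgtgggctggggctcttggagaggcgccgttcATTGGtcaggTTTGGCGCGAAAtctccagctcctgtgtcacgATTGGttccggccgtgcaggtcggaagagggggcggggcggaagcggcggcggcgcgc
ORC6: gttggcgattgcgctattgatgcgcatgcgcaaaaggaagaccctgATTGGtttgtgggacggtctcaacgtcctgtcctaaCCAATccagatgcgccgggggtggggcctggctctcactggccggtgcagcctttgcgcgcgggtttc
RFC5: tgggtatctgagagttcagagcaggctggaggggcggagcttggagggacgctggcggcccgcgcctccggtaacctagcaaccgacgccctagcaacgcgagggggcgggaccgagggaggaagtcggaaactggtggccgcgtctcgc
E2F1: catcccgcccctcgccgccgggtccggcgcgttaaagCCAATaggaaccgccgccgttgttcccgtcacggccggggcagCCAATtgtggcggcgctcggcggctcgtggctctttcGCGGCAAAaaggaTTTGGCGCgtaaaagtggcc
DTL: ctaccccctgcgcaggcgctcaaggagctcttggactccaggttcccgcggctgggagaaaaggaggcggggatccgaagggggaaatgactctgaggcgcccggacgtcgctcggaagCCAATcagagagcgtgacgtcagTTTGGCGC

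The E2F-type letters occurred in these windows 3 times in MCM6, 1 time in MCM7, 2 times in E2F1 and 1 time in DTL, and CCAAT 2 times in each of MCM3, MCM7, MCM6, ORC6 and E2F1 and 1 time in DTL. RRM2 and RFC5 held neither in this window, but both held CCAAT within 250 bases upstream of a listed start. MCM3 held an E2F-type motif there. Of the 48 members, 41 had a RefSeq entry (MCM4, MCM5, GINS4, POLD3, RPA2, RPA3 and CCNE2 did not). Within 250 bases upstream, 16 of the 41 (39%) held an E2F-type motif, against 3.4% of all genes in the table, and 23 (56.1%) held CCAAT, against 37% of all genes. Genes with these letters stood both among the members that fell and among those that rose. A match is a description of the letters in this window only.

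Values are in TPM, a share of all transcripts corrected for gene length. Every library added up to 1e+06 TPM, so the read depth and the counting error of a value are unknown. Between 11292 and 14024 genes reached 1 TPM per library, and the members took 0.137% to 0.552% of all TPM. Changes are log2 fold changes of log2(TPM + 1), which understates the change of low genes, with limma's standard error (SE) and a Benjamini-Hochberg adjusted p over all genes tested. A gene is called higher or lower at an adjusted p below 0.05. Because TPM are shares, the median gene need not sit at 0. Where it moved, the counts after median-of-ratios scaling, which brings the median gene to about 0, are given as well. The marker genes of each line fitted its label, with KRT5 in BxPC-3 and T3M-4, HNF4A in AsPC-1 and SUIT-2, CDH17 in T84, SOX10 in A375, POU2F3 in H1048 and MYOD1 in RH30, although PMEL, a melanoma marker, was near 1 TPM in A375. The targeted RUVBL1 mRNA fell in its knockouts by between -1.14 (BxPC-3) and -1.87 (CFPAC-1) and RUVBL2 mRNA by between -1.24 (AsPC-1) and -1.76 (T3M-4) on the log2 scale, and SERPINB5 mRNA changed by -1.35. KLF5 mRNA ranged from -0.41 (CFPAC-1) to 0.78 (T3M-4 experiment 2) in its knockouts and CHD4 mRNA stood at 0.28 in sgCHD4, and since a small insertion or deletion need not lower mRNA, neither checks its label.

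The targeted genes RPA3 and CDK1 were compared with the labels of 2 control knockouts, and RPA3 is a member. RPA3 stood at 62.3 and 66.3 TPM in the sgRosa libraries and at 22.1 and 25.6 TPM in the sgRpa3 libraries of T3M-4 experiment 1, and at 98.5, 80.6, 85.7 and 105 against 67.5 and 77.3 TPM in experiment 2. In BxPC-3 it stood at 32.7 and 33.2 against 21.1 and 20.4 TPM in experiment 1 and at 40.7, 42.4, 35.3 and 34.2 against 28.9 and 24.6 TPM in experiment 2, and in AsPC-1 at 43.9, 39.2, 44.4 and 41.8 against 29.6 and 32.1 TPM. In these 5 experiments both sgRpa3 libraries lay below every sgRosa library, but in T3M-4 experiment 2 the sgCDK1 libraries, at 69.9 and 79.1 TPM, lay there too. The fall passed the threshold in BxPC-3 experiment 2, -0.50 (SE 0.13, adjusted p = 0.0103), and T3M-4 experiment 2, -0.34 (SE 0.095, adjusted p = 0.0156), and missed it in the 3 others, among them T3M-4 experiment 1, -1.40 (SE 0.22, adjusted p = 0.943), where no gene of the table was called. CDK1 stood at 142, 128, 120.0 and 131 TPM in sgRosa and 40.2 and 53.1 TPM in sgCDK1 libraries of T3M-4, at 160.3, 126, 130.2 and 136 against 86.7 and 93.2 TPM in BxPC-3, and at 156, 141, 155 and 135 against 122 and 134 TPM in AsPC-1. In AsPC-1 the higher sgCDK1 library, at 134 TPM, lay close to the lowest sgRosa library, at 135 TPM. In CFPAC-1 the CDK1 values did not follow the labels. CDK1 stood at 194 and 207 TPM in the libraries labelled sgCDK1, close to 209, 206, 209 and 236 TPM in sgRosa, and at 81.0 and 91.9 TPM in the libraries labelled sgRpa3. RPA3 there was 34.3, 33.2, 37.4 and 45.7 TPM in sgRosa, 30.3 and 31.7 TPM in the libraries labelled sgRpa3 and 27.9 and 32.7 TPM in those labelled sgCDK1, so it did not separate them. A cut need not lower mRNA, and CDK1 is also among the G2/M genes counted below. So the values do not settle which guide these libraries carry. Results from these 4 libraries are therefore given for the libraries by their labels, and no direction for the loss of CDK1 or RPA3 is drawn from CFPAC-1.

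**Figure D1:**
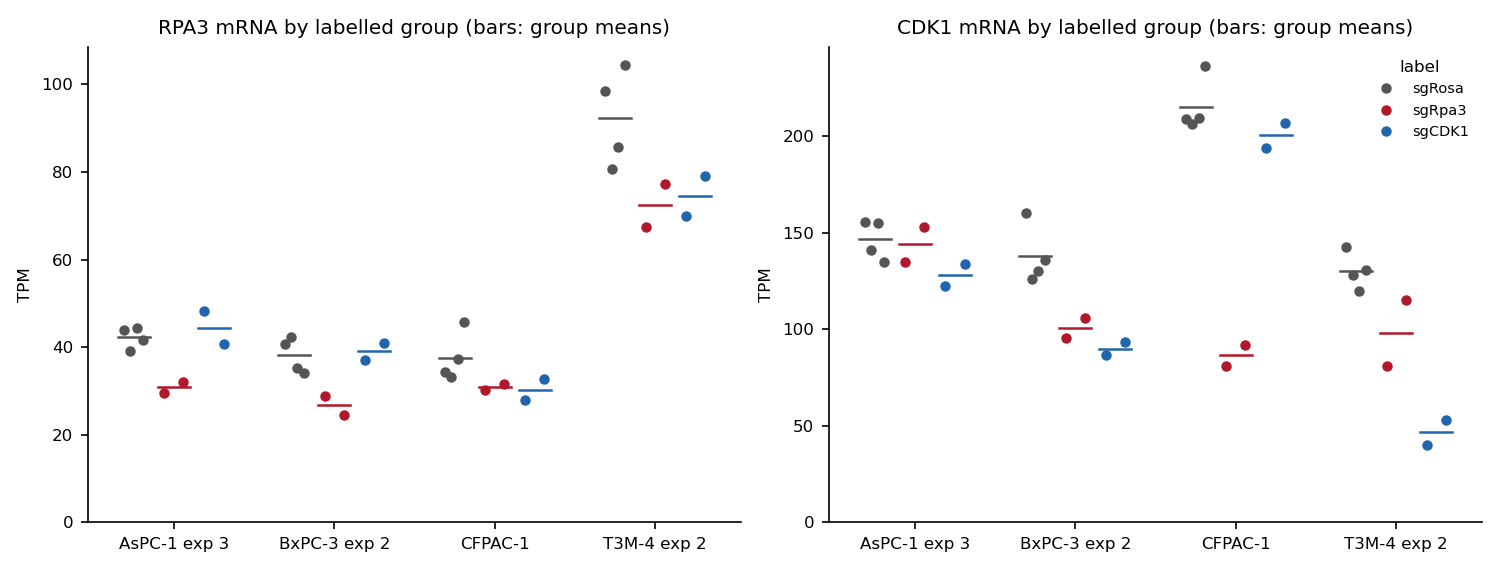
RPA3 and CDK1 mRNA in TPM (y axis) in each library of the 4 pancreatic experiments (x axis) that hold sgRosa, sgCDK1 and sgRpa3 libraries, with points for libraries and bars for group means. In CFPAC-1 CDK1 is at 81.0 and 91.9 TPM in the libraries labelled sgRpa3 and at 194 and 207 TPM in those labelled sgCDK1, and in T3M-4 at 40.2 and 53.1 TPM in the sgCDK1 libraries.

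Over the 39 comparisons of a knockout or CB-6644 group with its control, the members that were lower most often were RRM2, MCM3 and MCM7 (22 comparisons each), MCM6 (19), and LIG1, the ligase that joins lagging strand fragments, and CDC45, a helicase subunit (17 each). The members that were higher most often were RPA2, the middle RPA subunit (16 comparisons, lower in 0), ORC6 (14), RFC5 (12), GINS4 (10), and RPA3, FEN1, E2F1 and DTL (9 each). RRM2 was higher in 1 comparison, MCM3 in 2, MCM7 in 3, MCM6 in 3, LIG1 in 1 and CDC45 in 3. After median-of-ratios scaling RRM2 was lower in 27, MCM7 in 24 and MCM3 in 23 comparisons, and RPA2 and ORC6 were higher in 13 each, while GINS4 was higher in 9 and lower in 9 and FEN1 was higher in 7 and lower in 10. Of the genes tested in all 39, 1.65% were lower in 17 or more, as 6 members were, and 40.4% higher in 9 or more, as 8 members were. After scaling 5.3% of these genes and 18 members were lower in 17 or more, and 23.9% and 4 members higher in 9 or more. The members higher in 9 or more were thus fewer than the shares of all genes would give, with and without scaling. These comparisons are not independent, since those of the same line and experiment share their control libraries. So the 48 genes did not move as a block. Of the licensing genes, MCM7 was among the members most often lower and ORC6 among those most often higher, and RPA2 was lower in 0 comparisons (1 after scaling) while LIG1 was higher in 1 (0 after scaling).

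**Figure D2:**
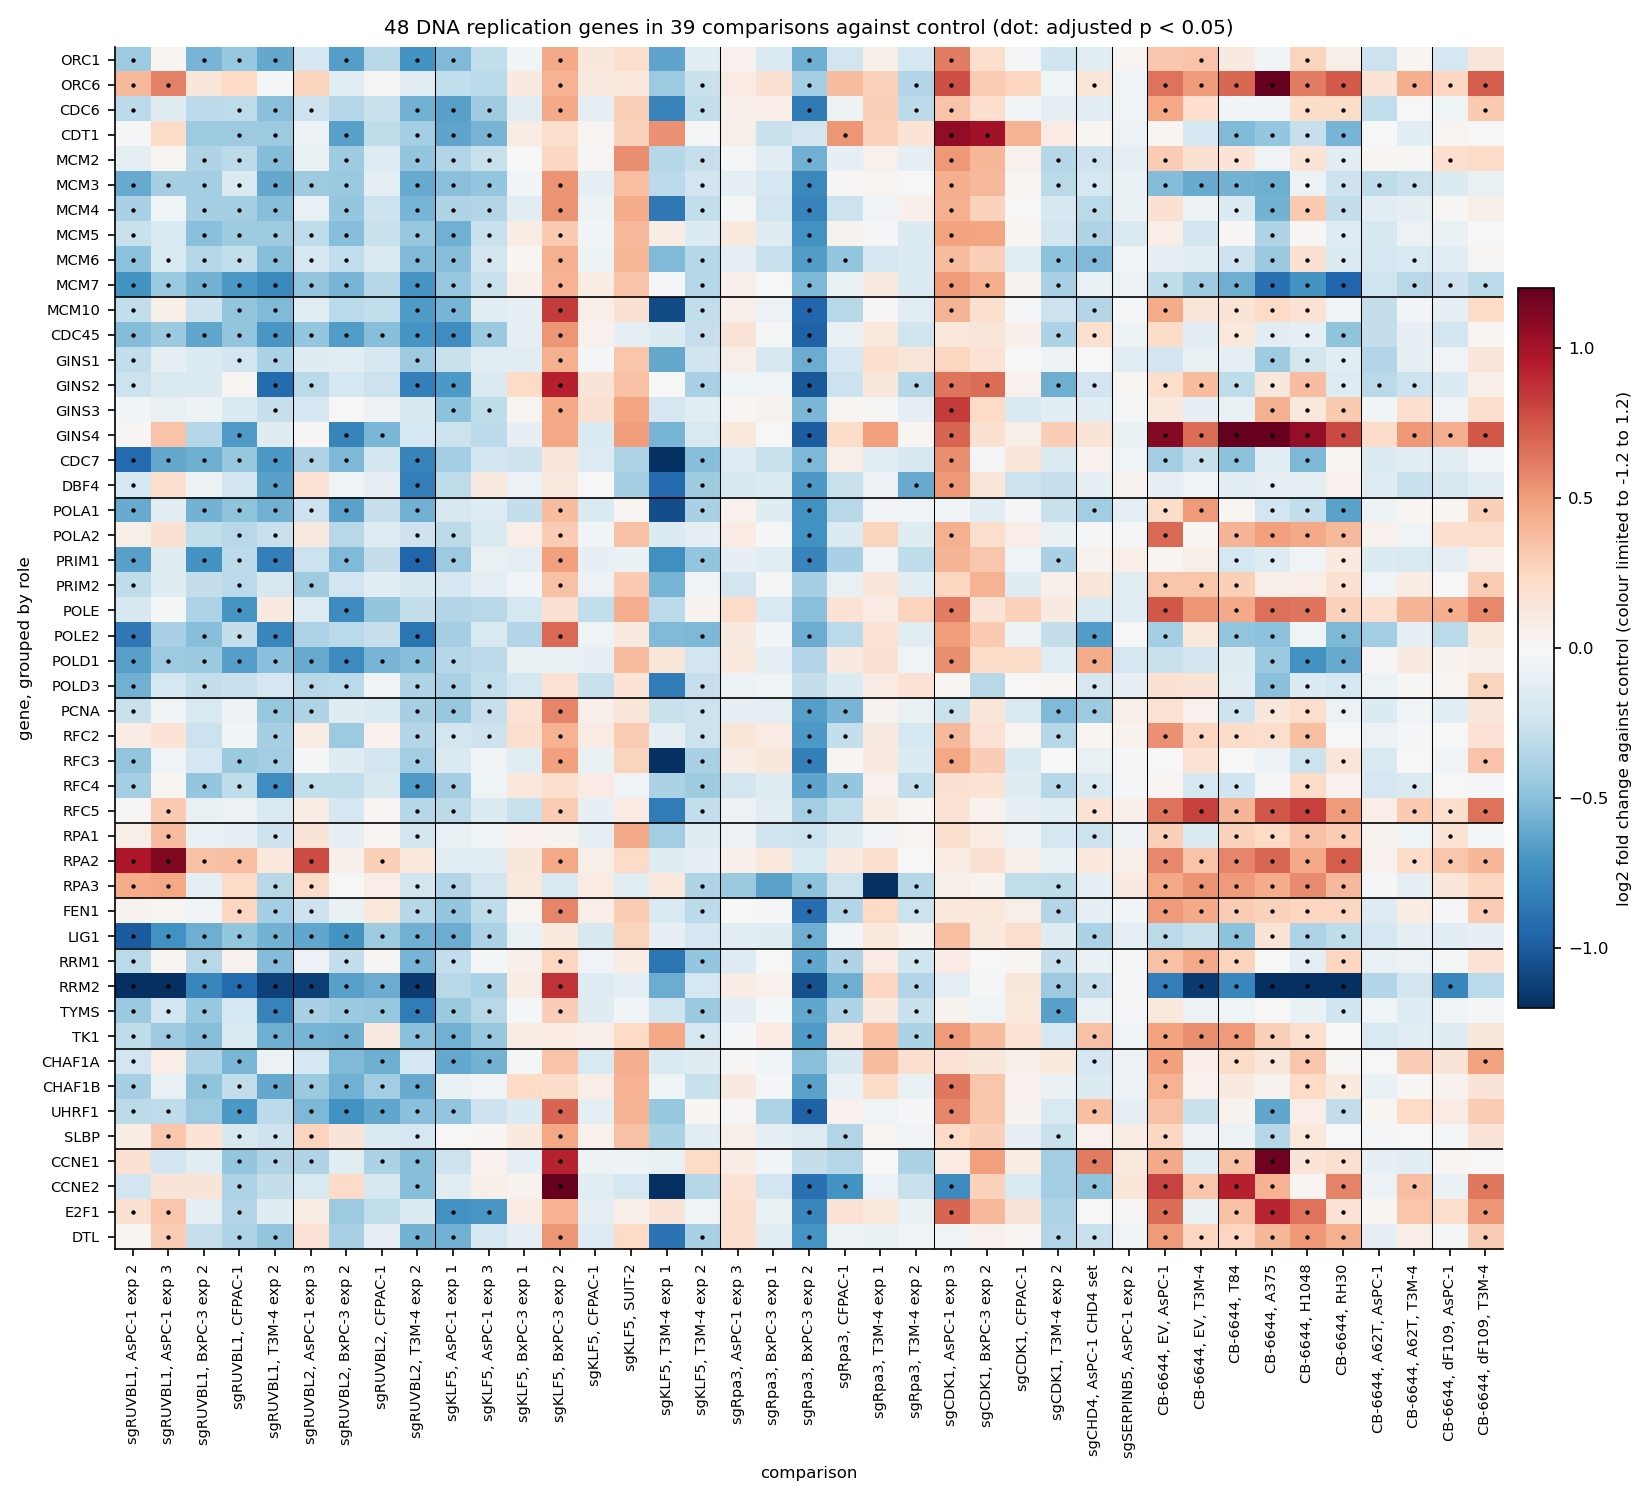
Log2 fold change (colour, blue lower and red higher) of each of the 48 members (rows, grouped by role) in the 39 comparisons against control (columns), with a dot where the adjusted p is below 0.05. The rows of RRM2, MCM3 and MCM7 are the most often blue with a dot, in 22 columns each, and the row of RPA2 is the most often red with a dot, in 16.

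Knockout of RUVBL1 or RUVBL2 lowered some of the members in all 4 pancreatic lines tested. RRM2, POLD1 (the catalytic subunit of polymerase delta), LIG1 and CDC45 were lower in all 9 comparisons, where 0.448% of the genes tested in all 9 were. Lower in more than 4 of the 9 were 24 of the 48 members and 8.46% of all genes. The fall of RRM2 ranged from -1.33 to -0.60 on the log2 scale, that of POLD1 from -0.77 to -0.44, that of LIG1 from -0.99 to -0.43 and that of CDC45 from -0.70 to -0.44. After scaling RRM2 and POLD1 stayed lower in 9 of 9, and LIG1 and CDC45 in 8, and 31 members and 12.4% of all genes were lower in more than 4. RPA2 went the other way, higher in 6 of the 9 and lower in 0, with and without scaling, and 14.7% of all genes were higher in more than 4. The comparisons within AsPC-1 experiment 3, BxPC-3, CFPAC-1 and T3M-4 share their sgRosa libraries between RUVBL1 and RUVBL2.

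RRM2, the regulated subunit of ribonucleotide reductase, showed the change most plainly. In AsPC-1 experiment 2 it stood at 111, 114, 127 and 124 TPM in sgRosa and 43.3, 49.7, 43.4 and 50.6 TPM in sgRUVBL1 libraries, a log2 fold change of -1.33 (SE 0.068, adjusted p = 8.67e-10). In AsPC-1 experiment 3 it stood at 85.1, 85.0, 83.4 and 83.0 TPM in sgRosa, 25.8, 29.6, 40.6 and 38.3 TPM in sgRUVBL1 and 40.2, 38.3, 42.6 and 31.4 TPM in sgRUVBL2 libraries, changes of -1.32 (SE 0.11, adjusted p = 7.8e-08) and -1.13 (SE 0.11, adjusted p = 1.34e-06). In both experiments the highest knockout library was below the lowest control. In T3M-4 RRM2 stood at 139, 140.1, 116 and 105 TPM in sgRosa, 56.6, 56.5 and 56.7 TPM in sgRUVBL1 and 49.5, 58.4, 55.1 and 59.6 TPM in sgRUVBL2 libraries, and in CFPAC-1 at 173, 167, 174 and 179, 77.0, 77.4, 101 and 111, and 114 and 114 TPM. In BxPC-3 it stood at 45.2, 38.9, 30.7 and 27.8 TPM in sgRosa, 21.1, 19.5, 20.040 and 19.3 TPM in sgRUVBL1 and 24.5, 23.2 and 18.7 TPM in sgRUVBL2 libraries. The groups did not overlap in any of these lines, and the BxPC-3 controls were the most spread.

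RPA2 was the member that rose furthest in AsPC-1. In AsPC-1 experiment 2 it stood at 53.2, 54.6, 50.8 and 52.1 TPM in sgRosa and 100.3, 111, 109.7 and 97.0 TPM in sgRUVBL1 libraries, 0.97 (SE 0.066, adjusted p = 1.21e-08). In experiment 3 it stood at 47.2, 43.5, 44.2 and 44.6 TPM in sgRosa, 107, 112, 85.5 and 89.9 TPM in sgRUVBL1 and 77.0, 81.9, 76.9 and 75.0 TPM in sgRUVBL2 libraries, 1.11 (SE 0.079, adjusted p = 8.25e-09) and 0.78 (SE 0.079, adjusted p = 1.34e-06). The knockout and control libraries were apart in both experiments. In BxPC-3 with sgRUVBL1 the change was 0.35 (SE 0.099, adjusted p = 0.0219), in CFPAC-1 with sgRUVBL1 0.36 (SE 0.068, adjusted p = 0.000714) and with sgRUVBL2 0.29 (SE 0.084, adjusted p = 0.0329). In T3M-4 it did not pass the threshold, with 0.13 (SE 0.06, adjusted p = 0.0738) under sgRUVBL1 and 0.12 (SE 0.056, adjusted p = 0.0716) under sgRUVBL2, nor in BxPC-3 with sgRUVBL2, 0.063 (SE 0.11, adjusted p = 0.735). The other RPA subunits did not follow it in every line: RPA3 was higher in AsPC-1 with sgRUVBL1 (0.44 in experiment 2 and 0.46 in experiment 3) and lower in T3M-4 (-0.34 with sgRUVBL1 and -0.22 with sgRUVBL2).

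By count, T3M-4 had the broadest fall. With sgRUVBL1 37 of 48 members were lower and 0 higher, beside 14.6% of all genes tested lower and 45.9% higher, and with sgRUVBL2 40 were lower and 0 higher, beside 15.2% and 39.3%. The median of the members was -0.47 with sgRUVBL1 and -0.51 with sgRUVBL2, where the median of all genes was 0.25 and 0.19, and after scaling 46 and 47 members were lower, beside 28.1% and 26.7% of all genes. Licensing genes had 9 of 10 lower with sgRUVBL1 (median -0.51), helicase activation genes 7 of 8 (-0.59), nucleotide supply genes 4 of 4 (-0.69) and RPA subunits 2 of 3 (-0.25). The largest falls after RRM2 were those of GINS2, a GINS subunit, -0.92 (SE 0.1, adjusted p = 1.49e-06), and PRIM1, the catalytic primase subunit, -0.82 (SE 0.11, adjusted p = 5.08e-06).

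In AsPC-1 experiment 2, 30 members were lower and 4 higher with sgRUVBL1, beside 25.8% of all genes lower and 30% higher, and the members' median was -0.30 where that of all genes was 0.018. The 4 that rose were RPA2, RPA3 (0.44), ORC6 (0.39) and E2F1, and LIG1 (-0.99) and CDC7, the kinase that triggers initiation (-0.94), fell furthest after RRM2. Experiment 3 of the same line gave a smaller count, 11 lower and 8 higher with sgRUVBL1, beside 15.2% and 36.6% of all genes, and 22 lower and 3 higher with sgRUVBL2, beside 11% and 32.2%. In that experiment the median of all genes was at 0.16 with sgRUVBL1 and 0.13 with sgRUVBL2, and scaling turned the counts to 22 lower and 4 higher (beside 25.2% and 24.8%) and to 32 lower and 1 higher (beside 20.9% and 20%). The genes at the extremes were the same in part: RRM2, LIG1 (-0.72) and CDC7 (-0.61) were again lowest with sgRUVBL1, and RPA2, ORC6 (0.60) and RPA3 highest.

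In CFPAC-1, 33 members were lower and 2 higher with sgRUVBL1, beside 37.3% of all genes lower and 6.54% higher. Here the median of all genes was itself at -0.20 and the members' at -0.32, and after scaling 13 were lower and 6 higher (beside 17.4% and 18.5%), so this count depends on the scaling. RRM2 (-0.93), POLE, the catalytic subunit of polymerase epsilon (-0.71), and MCM7 (-0.69) were lowest, and remained negative after scaling at -0.72, -0.50 and -0.48. With sgRUVBL2, 10 were lower and 1 higher, beside 9.26% and 2.83%, and leaving out 1 library moved the count of called members between 2, without sgRUVBL2 replicate 1, and 14. In BxPC-3, 21 were lower and 1 higher with sgRUVBL1, beside 7.67% and 8.29% of all genes, and 23 and 0 with sgRUVBL2, beside 5.48% and 4.27%. PRIM1 (-0.71) and CDC45 (-0.62) followed RRM2 with sgRUVBL1, and GINS4 (-0.80), POLD1 (-0.77) and POLE (-0.76) led with sgRUVBL2. Without sgRUVBL2 replicate 3 the sgRUVBL2 count was 11.

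The BxPC-3 controls of experiment 2 differed among themselves. Relative to the mean of the 4 sgRosa libraries the members' median stood at 0.24, 0.13, -0.14 and -0.22 in replicates 1 to 4, while the median of all genes stayed between -0.033 and 0.028. The median of the G2/M genes stood at 0.061, -0.046, 0.042 and -0.035 and that of the p53 targets at 0.0047, -0.072, 0.10 and 0.091 in the same order. With replicates 1 and 2 alone as control, 29 members were lower with sgRUVBL1 and 32 with sgRUVBL2 (beside 7.02% and 4.94% of all genes), and with replicates 3 and 4 alone, 6 and 4 (beside 2.99% and 0.904%). The direction was the same under both, and the size of the BxPC-3 effect rests on which controls are used. The cause of the difference was not tested.

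**Figure D3:**
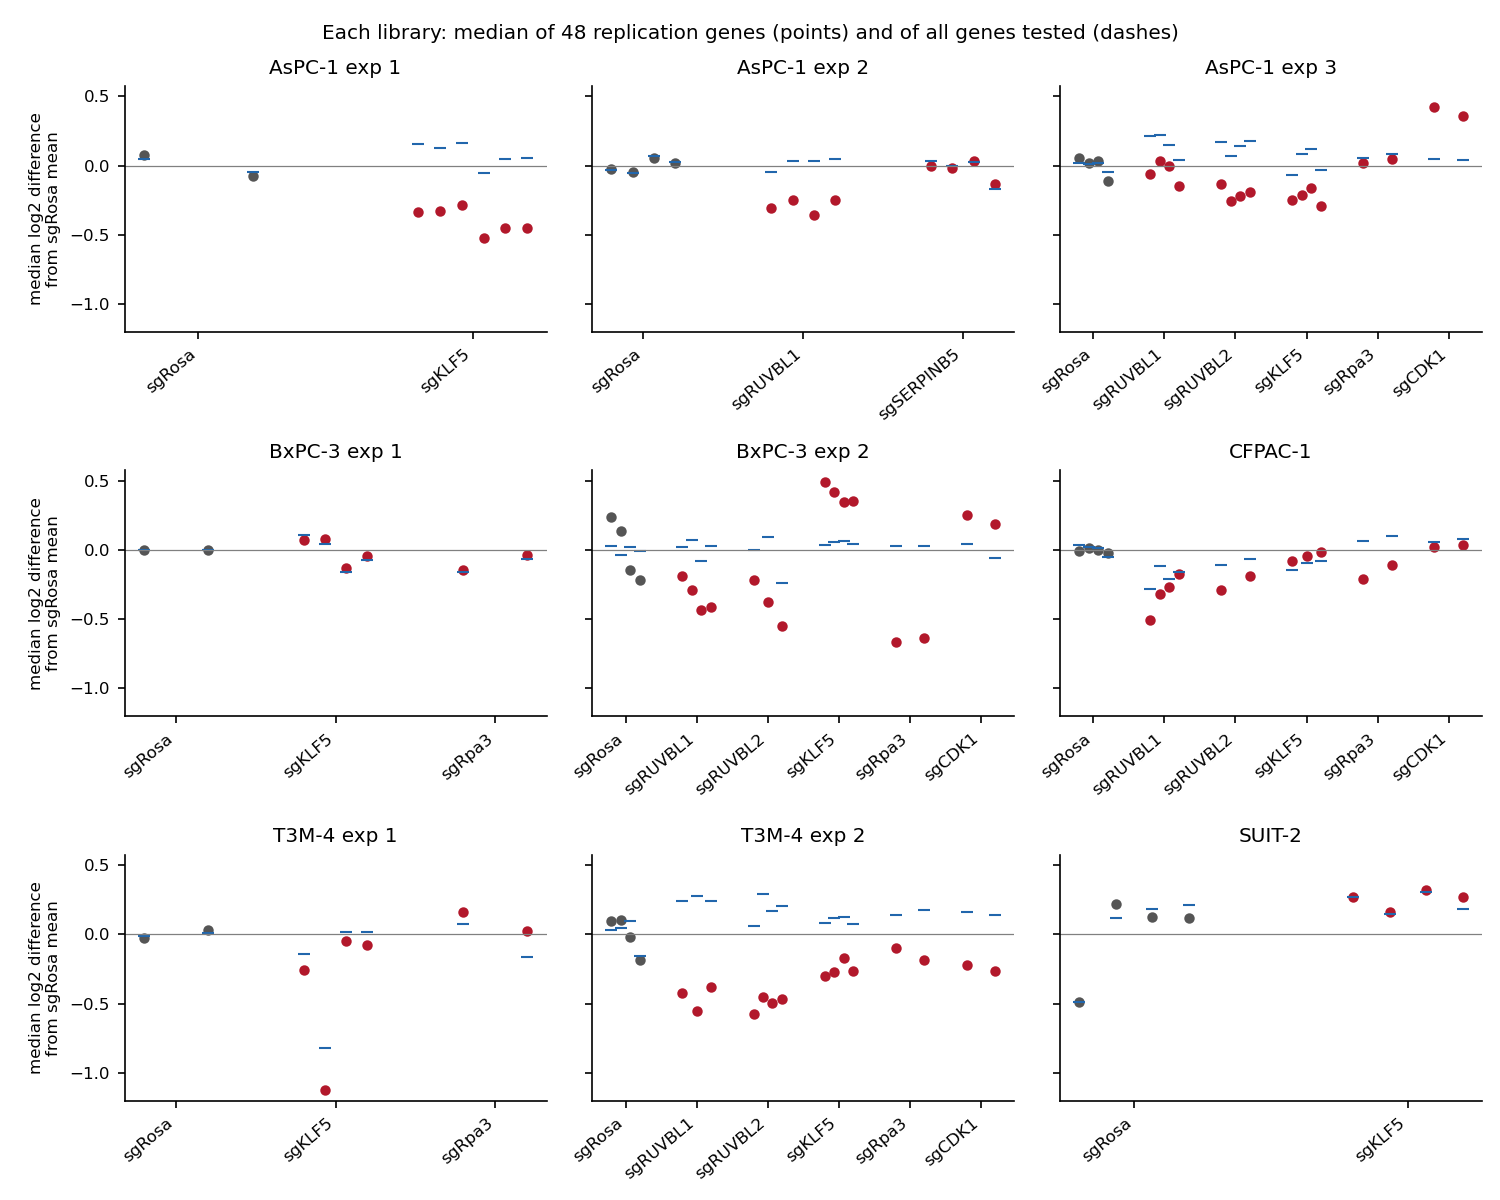
Median over the 48 members of the log2 difference from the mean of the control libraries (y axis, points) and the same median over all genes tested (dashes), for each library (x axis, by labelled group) of the knockout experiments. In T3M-4 experiment 2 the RUVBL1 and RUVBL2 knockout libraries lie below every sgRosa library, and in BxPC-3 experiment 2 the sgRosa libraries spread from -0.22 to 0.24.

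The other genes of the pathway, 30 replication genes outside the 48 such as GMNN, CLSPN and TIMELESS, were counted too. In T3M-4 2 higher and 13 lower of 30 tested were called with sgRUVBL1 and 0 higher and 17 lower of 30 with sgRUVBL2, in AsPC-1 experiment 2 4 higher and 16 lower of 30, in AsPC-1 experiment 3 8 higher and 5 lower of 30 with sgRUVBL1, and in CFPAC-1 0 higher and 23 lower of 30. Of 25 G2/M genes, which act in mitosis, 24 were lower in T3M-4 with sgRUVBL1 (median -0.94), 22 in AsPC-1 experiment 2 (-0.42), 12 in AsPC-1 experiment 3 (-0.15), 19 in BxPC-3 (-0.38) and 14 in CFPAC-1 (-0.27). CDKN1A, the cell cycle inhibitor p21, was higher in T3M-4 (0.88), AsPC-1 experiment 2 (1.08), AsPC-1 experiment 3 (0.75) and BxPC-3 (0.63) with sgRUVBL1 and at 0.14 (SE 0.12, adjusted p = 0.362) in CFPAC-1. The part of fewer dividing cells in the members' fall was not tested.

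Knockout of KLF5 gave no common direction over lines. In AsPC-1 experiment 1, 31 members were lower and 0 higher, beside 8.81% of all genes lower and 17.1% higher, with a median of -0.40 (0.082 for all genes), and in experiment 3, 20 were lower and 0 higher, beside 12.3% and 15.4%, with a median of -0.25. In T3M-4 experiment 2, 27 were lower and 0 higher, beside 11.2% and 23.4%, with a median of -0.27. In BxPC-3 experiment 2 the direction was the opposite, with 32 higher and 0 lower, beside 21% and 13.6%, and a median of 0.42 (0.047 for all genes). In BxPC-3 experiment 1, T3M-4 experiment 1, CFPAC-1 and SUIT-2 limma called 0 members, and 2, 10, 2 and 7 had an unadjusted p below 0.05, beside 27%, 25.4%, 32.5% and 16.4% of all genes. After adjustment 8.09%, 3.26%, 3.26% and 2.94% of all genes were higher and 8.1%, 2.46%, 13% and 1% lower in these comparisons.

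In AsPC-1 the lowest members of experiment 1 were CDC45 (-0.74, SE 0.082, adjusted p = 8.97e-05), E2F1, the G1/S transcription factor (-0.73, SE 0.088, adjusted p = 0.000176), and GINS2 (-0.69, SE 0.11, adjusted p = 0.00127). E2F1 stood at 58.0 and 58.5 TPM in the 2 sgRosa libraries and between 32.7 and 38.8 TPM in the 6 sgKLF5 libraries. In experiment 3 E2F1 was again lowest, at 33.1, 32.7, 34.0 and 31.4 TPM in sgRosa and 16.8, 22.4, 23.8 and 17.0 TPM in sgKLF5 libraries, -0.70 (SE 0.1, adjusted p = 2.31e-05), followed by CHAF1A, a subunit of the histone chaperone CAF-1 (-0.57), and CDT1 (-0.56). The sgKLF5 and sgRosa libraries did not overlap for E2F1 in either experiment. Of the licensing genes, 9 of 10 were lower in experiment 1 (median -0.51) and 8 in experiment 3 (-0.31). Of the RPA subunits, 1 of 3 was lower in experiment 1 and 0 in experiment 3. Without sgRosa replicate 1, 16 members were called in experiment 1, and without sgKLF5 replicate 4, 13 in experiment 3. In T3M-4 experiment 2 POLE2 (-0.54), CDC7 (-0.52) and PRIM1 (-0.47) were lowest and E2F1 was at -0.052 (SE 0.13, adjusted p = 0.789). Scaling raised the counts of lower members to 39 and 27 in AsPC-1 and 41 in T3M-4 experiment 2, beside 13.7%, 15.2% and 19.9% of all genes.

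In BxPC-3 experiment 2 the cyclin E genes, which activate CDK2 at the G1/S boundary, rose furthest with GINS2. CCNE2 stood at 6.498, 3.34, 2.80 and 2.08 TPM in sgRosa and 11.4, 10.4, 9.46 and 8.08 TPM in sgKLF5 libraries, 1.28 (SE 0.25, adjusted p = 0.000561), and CCNE1 at 13.997, 14.2, 11.7 and 10.3 against 22.1, 27.0, 23.8 and 25.3 TPM, 0.92 (SE 0.13, adjusted p = 3.3e-05). GINS2 changed by 0.93 (SE 0.14, adjusted p = 7.06e-05). Licensing genes were higher in 8 of 10 and clamp and clamp loader genes in 4 of 5, but the G2/M genes went the other way, 0 higher and 7 lower of 25. With sgRosa replicates 1 and 2 alone as control 11 members were higher (beside 10.9% of all genes), and with replicates 3 and 4 alone 37 (beside 20.6%), with 0 lower under both. In BxPC-3 experiment 1 the members' median was -0.024 and 0 passed, so the rise was seen in 1 of the 2 BxPC-3 experiments, and the difference between them was not tested.

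In T3M-4 experiment 1 the sgKLF5 libraries differed among themselves. The members' median relative to sgRosa was -0.26, -1.12, -0.051 and -0.078 in replicates 1 to 4, and that of all genes -0.14, -0.82, 0.016 and 0.019, so replicate 2 stood apart over the whole transcriptome. Its G2/M median was -2.25. Without it 15 members were called, and with all 4 libraries 0 were, although CCNE2 (-1.56, SE 0.65, adjusted p = 0.186) and RFC3, a clamp loader subunit (-1.31, SE 0.55, adjusted p = 0.191), had the lowest values. In SUIT-2 sgRosa replicate 1 stood apart, with a members' median of -0.49 where the other 3 controls were at 0.22, 0.12 and 0.12 and the median of all genes in it at -0.49. Without it 2 members were called. In CFPAC-1 the members ranged from -0.30 (POLE) to 0.19 (GINS3) with a median of -0.054.

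The control knockouts sgCDK1 and sgRpa3 did not move the members alike in AsPC-1 and BxPC-3. In AsPC-1 sgCDK1 raised 26 members and lowered 2, beside 10.3% of all genes higher and 6.44% lower, with a median of 0.40, and sgRpa3 gave 0 higher and 0 lower, beside 0.638% and 0.0164%. With sgRpa3 3 members had an unadjusted limma p below 0.05, beside 8.84% of all genes. CDT1, the licensing factor that is degraded in S phase, stood at 26.0, 27.3, 23.0 and 21.5 TPM in sgRosa, 53.2 and 50.5 TPM in sgCDK1 and 27.7 and 23.7 TPM in sgRpa3 libraries. The sgCDK1 change of CDT1 was 1.06 (SE 0.16, adjusted p = 0.000178), and GINS3 (0.84) and ORC6 (0.77) came next. CCNE2 went the other way, from 11.4, 7.70, 12.9 and 9.74 to 4.91 and 6.49 TPM, -0.76 (SE 0.16, adjusted p = 0.00321), as did PCNA (-0.26, SE 0.056, adjusted p = 0.00294). All 10 licensing genes and 6 of 8 helicase activation genes were higher, together with 21 of 25 G2/M genes (median 0.75). Without sgCDK1 replicate 1, 8 members were called in place of 28, so the count rests on few libraries. The paper lists 1 guide each for CDK1 and for RPA3, so effects of the guide and of losing the gene cannot be told apart.

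In BxPC-3 experiment 2 sgCDK1 raised 3 members, CDT1, GINS2 and MCM7, and lowered 0, beside 3.71% and 2.12% of all genes, and after scaling 5 were higher and 1 lower, beside 5.61% and 3.04%. CDT1 stood at 29.5, 34.5, 26.0 and 27.3 TPM in sgRosa and 63.4 and 56.4 TPM in sgCDK1 libraries, 1.01 (SE 0.19, adjusted p = 0.00282), so this gene rose with sgCDK1 in both lines. Without sgCDK1 replicate 1, 0 members were called and without sgRosa replicate 1, 8 were. With sgRosa replicates 1 and 2 alone as control 1 was called, and with replicates 3 and 4 alone 15. With sgRpa3, 39 members were lower and 0 higher, beside 11.6% and 9.12%, with a median of -0.64 (0.025 for all genes), the broadest fall of any sgRpa3 or sgCDK1 comparison by count. RRM2 stood at 45.2, 38.9, 30.7 and 27.8 TPM in sgRosa and 15.5 and 17.5 TPM in sgRpa3 libraries, -1.04 (SE 0.15, adjusted p = 0.000193), GINS2 changed by -1.02 and GINS4 by -0.99. Both sgRpa3 libraries were below every control for RRM2. The count was 42 and 22 with sgRosa replicates 1 and 2 or 3 and 4 alone, and 25 without sgRpa3 replicate 1. In experiment 1 of the same line limma called 0 members with sgRpa3 (median -0.10), where 0.29% of all genes were higher and 0.0161% lower, and 2 had an unadjusted p below 0.05, beside 8.26% of all genes.

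In T3M-4 experiment 2, 17 members were lower and 0 higher with sgCDK1, beside 3.85% and 13% of all genes, and 11 lower and 0 higher with sgRpa3, beside 6.2% and 18.4%. TYMS, which makes thymidylate, was lowest with sgCDK1 (-0.65, SE 0.074, adjusted p = 6.23e-05), and DBF4, the activator of CDC7, with sgRpa3 (-0.61, SE 0.15, adjusted p = 0.00857). The median of all genes was at 0.15 and 0.15, and scaling gave 30 and 25 lower members, beside 8.88% and 14.4% of all genes. Counts ranged from 6, without sgCDK1 replicate 2, to 22 and from 1, without sgRpa3 replicate 1, to 14 when 1 library was left out. In experiment 1 limma called 0 members with sgRpa3, and 2 had an unadjusted p below 0.05, beside 1.5% of all genes. In CFPAC-1 the libraries labelled sgRpa3, which carried the low CDK1, had 10 members lower and 1 higher, beside 3.39% and 8.17%, with CCNE2 (-0.71) lowest and CDT1 (0.53) highest. Those labelled sgCDK1 had 0 members and 0 genes of the table called by limma, and 3 members had an unadjusted p below 0.05, beside 11.6% of all genes. Without the library labelled sgRpa3 replicate 2, 1 member was called.

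The difference between the groups was tested directly. Against sgCDK1, sgRpa3 libraries had 19 members lower and 1 higher in AsPC-1 (beside 6.59% and 6.69% of all genes), 45 and 0 in BxPC-3 (beside 14.4% and 12.2%) and 0 and 2 in T3M-4 (beside 1.95% and 0.974%). CDT1 differed by -0.99 (SE 0.19, adjusted p = 0.0014) in AsPC-1 and -1.23 (SE 0.22, adjusted p = 0.000611) in BxPC-3. In T3M-4 PCNA (0.44) and TYMS (0.38) were the higher ones, and after scaling 0 were higher and 1 lower, beside 1.2% and 2.54%. Leaving out 1 library of AsPC-1 brought its count to between 5 and 12, that is to 5 without sgCDK1 replicate 1. Against sgCDK1, sgRUVBL1 libraries had 30 lower and 5 higher in AsPC-1 (beside 18.1% and 30%), 28 and 0 in BxPC-3 (beside 11% and 10.7%) and 16 and 1 in T3M-4 (beside 9.89% and 19.2%). RRM2 differed by -1.21 (SE 0.14, adjusted p = 1.78e-06) in AsPC-1 and -0.68 (SE 0.11, adjusted p = 0.000192) in T3M-4, and RPA2 by 1.02 (SE 0.097, adjusted p = 2.07e-07) in AsPC-1. Without sgCDK1 replicate 2 the counts of called members were 17 in BxPC-3 and 7 in T3M-4. In CFPAC-1 sgRUVBL1 against the libraries labelled sgCDK1, whose CDK1 was not low, gave 25 lower and 3 higher, beside 38.3% and 5.43%, and 10 and 7 after scaling, beside 16.2% and 18.3%. The libraries labelled sgRpa3 against those labelled sgCDK1 gave 3 lower and 0 higher, beside 0.204% and 0.416%, and 0 with any 1 of the 4 left out, and the sgRUVBL1 count was 15 without the library labelled sgCDK1 replicate 2. In T3M-4 the sgRpa3 count was 0 or 1 with a library left out.

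Of the remaining knockouts, sgSERPINB5 in AsPC-1 had 0 members called by limma and 1 with an unadjusted p below 0.05, beside 6.89% of all genes (0.0172% higher and 0.0172% lower after adjustment), with all between -0.21 and 0.15. sgCHD4, which targets the gene of a NuRD remodelling ATPase, had 18 lower and 7 higher, beside 26.7% and 23.3% of all genes. The lower members were somewhat more, and the higher ones somewhat fewer, than these shares would give. POLE2 (-0.67, SE 0.11, adjusted p = 0.00036) and MCM6 (-0.53) were lowest and CCNE1 (0.62, SE 0.088, adjusted p = 0.00011) and POLD1 (0.45) highest. POLD1 was thus higher here and lower in the RUVBL knockouts of the same line.

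CB-6644 raised some members and lowered others, in unscaled counts near the shares of all genes in most lines. In the 4 non-pancreatic lines, 21 members were higher and 13 lower in T84 (beside 47.2% of all genes higher and 24.2% lower), 21 and 17 in A375 (beside 51.5% and 29.7%), 27 and 13 in H1048 (beside 53.9% and 24%) and 20 and 19 in RH30 (beside 50.4% and 27.3%). The median of all genes stood at 0.13, 0.16, 0.18 and 0.13, and scaling turned the counts to 15 higher and 22 lower (beside 35.5% and 35.3%), 15 and 27 (beside 40.4% and 40%), 14 and 20 (beside 37.7% and 37.4%), and 14 and 26 (beside 37.9% and 38.3%). So the balance between rises and falls depends on the scaling. After scaling the share of lower members lay above that of all genes in all 4 lines, and that of higher members below it. In empty-vector AsPC-1 25 were higher and 6 lower (beside 47.2% and 17.2%), and in empty-vector T3M-4 15 and 5 (beside 19.1% and 15.2%). After scaling these were 16 and 12 (beside 30.7% and 31.4%) and 10 and 9 (beside 19.3% and 22.3%). In these empty-vector cells the scaled shares of lower members lay somewhat below those of all genes. The widest gaps to the unscaled shares were those of the lower members in RH30 and the higher members in T3M-4, both above the share of all genes. MCM3, MCM7 and RRM2 were lower in all 6 lines, and ORC6, GINS4, RFC5, RPA2, RPA3, FEN1 and DTL higher in all 6. Of the genes tested in all 6, 5.48% were lower and 10.6% higher in every line, so these numbers of members, 3 and 7, were near the background. Against the DMSO library of the same vector alone, 9 of these 10 genes were called the same way in AsPC-1 and all 10 in T3M-4, and DTL in AsPC-1 was at 0.19 (SE 0.075, adjusted p = 0.0611). After scaling MCM3, MCM7, RRM2 and CDC7 were lower in all 6 and ORC6, GINS4, RFC5, RPA2 and POLE higher in all 6, beside 10% and 7.65% of all genes, so RPA3, FEN1 and DTL depend on the scaling and 7 of these genes do not.

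RRM2 had the lowest value of the 48 in each of the 4 lines. In A375 it stood at 248, 249, 207 and 213 TPM in DMSO and 56.5, 56.0, 55.2 and 58.4 TPM in CB-6644, -1.998 (SE 0.058, adjusted p = 1.25e-10), and in H1048 at 149, 147, 158 and 153 TPM in DMSO and 36.9, 36.5, 35.8 and 35.8 TPM in CB-6644, -2.04 (SE 0.033, adjusted p = 1.07e-12). In RH30 it stood at 189.5, 179, 189 and 185 TPM in DMSO and 60.2, 60.2, 64.1 and 63.3 TPM in CB-6644, -1.57 (SE 0.031, adjusted p = 1.78e-12), and in T84 at 144, 172, 153 and 156 TPM in DMSO and 92.7, 89.973, 88.2 and 89.8 TPM in CB-6644, -0.78 (SE 0.05, adjusted p = 2.16e-09). The CB-6644 and DMSO libraries were apart in all 4. RRM1, the large subunit of the same enzyme, was at -0.0059 in A375, -0.12 in H1048, 0.26 in RH30 and 0.27 in T84, and passed the threshold in the last 3. RRM2B, the p53-induced alternative small subunit, was at 1.14 (SE 0.036, adjusted p = 2.22e-10) in A375, 0.10 in H1048, 0.47 in RH30 and 0.19 in T84.

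GINS4, a subunit of the helicase activator GINS, had the highest value in each of the 4 lines. In A375 it stood at 17.1, 17.1, 16.2 and 15.9 TPM in DMSO and 57.9, 59.0, 54.8 and 55.7 TPM in CB-6644, 1.72 (SE 0.039, adjusted p = 2.5e-11), in T84 at 13.4, 14.9, 13.3 and 15.0 TPM in DMSO and 37.3, 35.8, 36.0 and 35.1 TPM in CB-6644, 1.29 (SE 0.059, adjusted p = 8.02e-11), in H1048 at 30.9, 31.8, 30.8 and 31.1 TPM in DMSO and 66.1, 65.4, 66.4 and 65.3 TPM in CB-6644, 1.06 (SE 0.031, adjusted p = 1.01e-10), and in RH30 at 30.1, 30.8, 31.2 and 30.5 TPM in DMSO and 54.7, 53.2, 55.0 and 53.1 TPM in CB-6644, 0.80 (SE 0.03, adjusted p = 2.56e-10). Its partners in the complex did not all rise with it. GINS1 was at -0.42, -0.11, -0.22 and -0.14 in A375, T84, H1048 and RH30, and was lower in all but T84, and GINS2 at 0.13, -0.30, 0.37 and -0.15, higher in A375 and H1048 and lower in T84 and RH30. After scaling GINS1 was lower in T84 as well (-0.24). GINS2 was then no longer called in A375 (-0.031) and kept its calls in T84, H1048 and RH30. The 3 subunits of RPA all rose in these lines. RPA1, RPA2 and RPA3 were each higher in all 4, with medians over the 3 genes of 0.51 in T84, 0.44 in A375, 0.47 in H1048 and 0.39 in RH30, and each stayed higher after scaling. RPA2 stood at 115, 108, 114 and 116 TPM in DMSO and 188, 184, 193 and 189 TPM in CB-6644 in RH30, 0.73 (SE 0.028, adjusted p = 2.82e-10).

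Licensing genes were divided. ORC6 stood at 56.3, 64.0, 51.3 and 51.7 TPM in DMSO and 138, 130.4, 131 and 139 TPM in CB-6644 in A375, 1.26 (SE 0.061, adjusted p = 5.88e-09), and changed by 0.69 in T84, 0.61 in H1048 and 0.73 in RH30. MCM7 stood at 560.0, 570.2, 560.0 and 533 TPM in DMSO and 295, 293, 280.3 and 279 TPM in CB-6644 in RH30, -0.95 (SE 0.028, adjusted p = 3.18e-11), and changed by -0.59 in T84, -0.89 in A375 and -0.72 in H1048, and MCM3 by -0.57, -0.58, -0.067 and -0.25 in T84, A375, H1048 and RH30. The 6 subunits of the MCM2-7 ring, present in equal numbers in the complex, were thus uneven in RNA. MCM2 was at 0.17, -0.046, 0.17 and -0.12 in the same order. By role, 6 of 10 licensing genes were lower in A375 (median -0.41), 7 in RH30 (-0.16), 5 in T84 (-0.095) and 3 in H1048 (0.18), where 6 were higher. The median of all genes in H1048 was 0.18 as well. After scaling ORC6 and MCM4 were higher in H1048 and CDT1, MCM3, MCM5 and MCM7 lower. The 4 genes of G1/S control were higher in 4 of 4 in T84, 4 in A375, 3 in H1048 and 4 in RH30, and lower in 0. CCNE1 in A375 stood at 18.9, 17.2, 15.6 and 17.1 TPM in DMSO and 41.6, 34.4, 42.1 and 42.0 TPM in CB-6644, 1.17 (SE 0.072, adjusted p = 3.77e-08). After scaling CCNE1, E2F1, DTL and the lagging strand nuclease FEN1 were no longer higher in all 4.

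The clamp loader subunit RFC5 changed by 0.82 (SE 0.034, adjusted p = 1.15e-09) in H1048, the polymerase subunits POLA2 and POLE were higher in all 4 lines, and POLD1 was lowest after RRM2 in H1048 (-0.73, SE 0.041, adjusted p = 1.23e-08) and POLA1 was lowest after RRM2 and MCM7 in RH30 (-0.64, SE 0.027, adjusted p = 5.35e-10). A test of the difference itself, limma's F test of line by treatment over the 32 libraries, called 45 of the 48 members, but also 12289 of the 14250 genes tested (86.2%), so its count of members stood against a background as high. The F test gave an adjusted p of 4.19e-16 for RRM2, 3.46e-15 for GINS4 and 1.17e-07 for MCM7. Among the members, 12 were higher in 1 or more and lower in 1 or more of the 4 lines, among them MCM2, MCM4, MCM6, PCNA and LIG1. After scaling 10 were, among them MCM4 but not MCM2, MCM6, PCNA or LIG1. The share of all genes with such opposite calls is not given here, so these counts have no background. The p53 target list had 14 higher and 0 lower of 15 tested in A375 (median 1.58), 7 higher and 5 lower of 14 in T84, 7 higher and 4 lower of 15 in H1048 and 10 higher and 3 lower of 14 in RH30, and CDKN1A changed by 2.04 in A375, 1.59 in H1048, 0.78 in RH30 and 0.83 in T84. G2/M genes were lower in 21 of 25 in A375, 24 in H1048, 13 in RH30 and 10 in T84. The 30 other replication genes gave 14 higher and 11 lower of 30 tested in A375, 14 higher and 13 lower of 30 in T84, 17 higher and 9 lower of 30 in H1048 and 14 higher and 11 lower of 30 in RH30. The part of these in the members' changes was not tested.

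**Figure D4:**
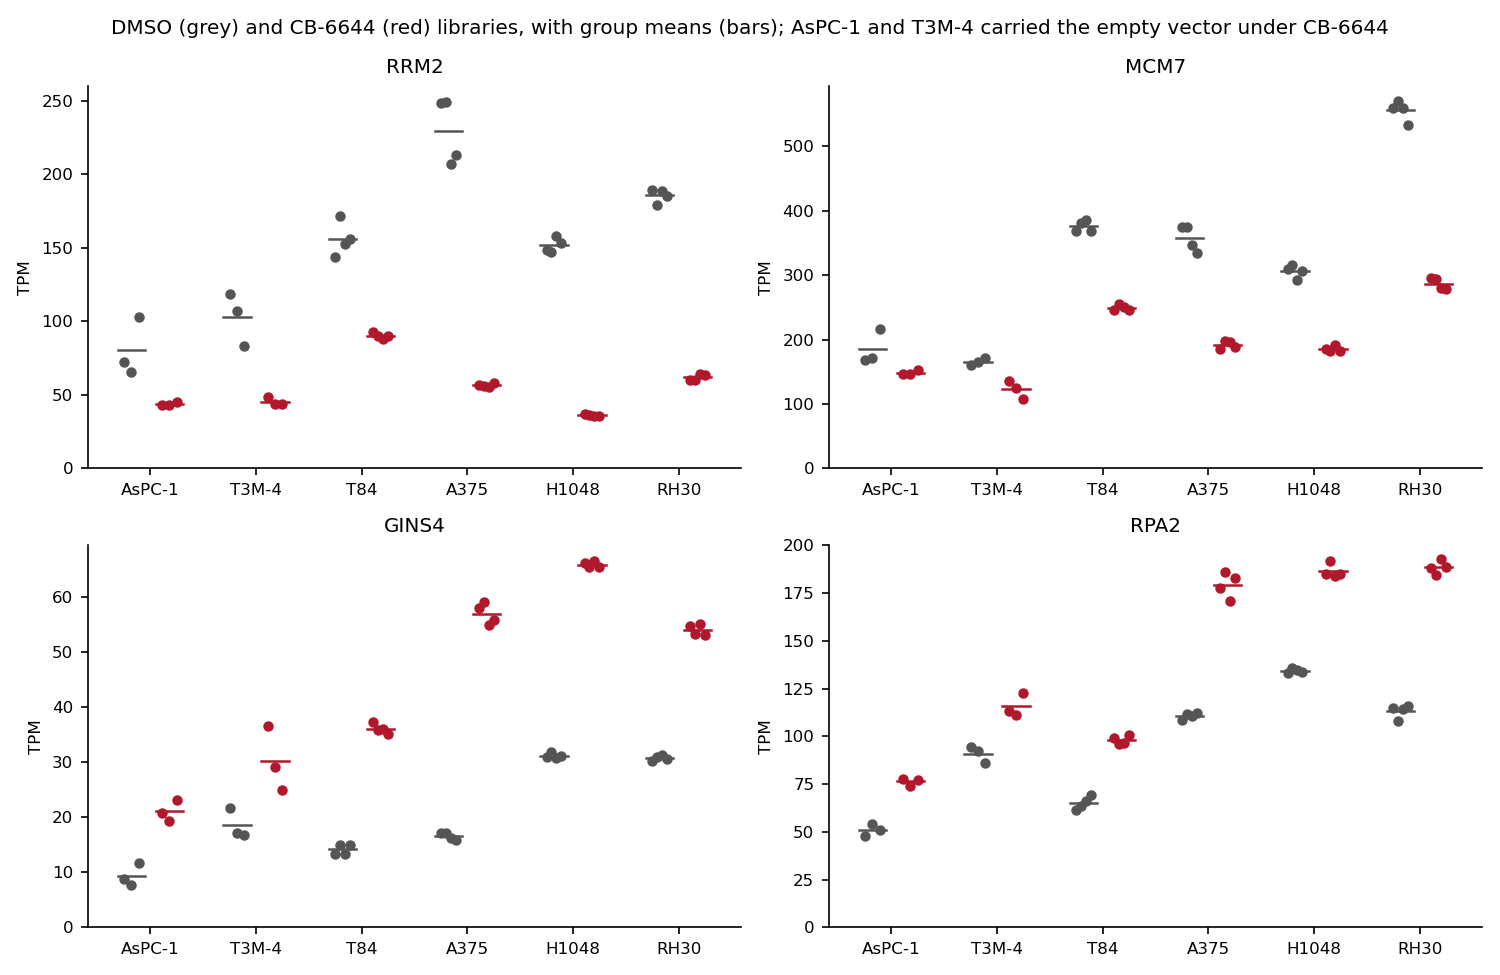
RRM2, MCM7, GINS4 and RPA2 mRNA in TPM (y axes, from 0) in each DMSO (grey) and CB-6644 (red) library of 6 lines (x axes), with bars for group means; the AsPC-1 and T3M-4 CB-6644 libraries carried the empty vector and their DMSO libraries the 3 vectors. RRM2 and MCM7 are lower and GINS4 and RPA2 higher in CB-6644 in every line, with RRM2 in H1048 falling from 152 to 36.2 TPM on average.

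In the pancreatic lines the vectors test the resistance variants. RRM2 in AsPC-1 stood at 43.2, 43.4 and 45.1 TPM in CB-6644 with the empty vector, 61.2, 61.4 and 61.4 TPM with RUVBL1 A62T and 45.4, 45.7 and 44.7 TPM with RUVBL2 dF109. The DMSO libraries were at 103 TPM with the empty vector, 72.2 TPM with A62T and 65.6 TPM with dF109. So in CB-6644 the dF109 and empty-vector libraries lay close together for RRM2 and the A62T libraries above both. Empty vector against A62T differed by -0.48 (SE 0.12, adjusted p = 0.00526) and against dF109 by -0.044 (SE 0.12, adjusted p = 0.786). In T3M-4 RRM2 stood at 48.9, 43.6 and 44.0 TPM with the empty vector, 83.4, 96.5 and 83.0 TPM with A62T and 79.8, 80.8 and 84.040 TPM with dF109 in CB-6644, and the DMSO libraries at 83.2, 119 and 107 TPM in that order. There RRM2 was lower with the empty vector than with either variant, by a difference of -0.93 (SE 0.12, adjusted p = 0.00032) from A62T and -0.83 (SE 0.12, adjusted p = 0.00169) from dF109. GINS4 in AsPC-1 stood at 20.8, 19.2 and 23.1 TPM with the empty vector, 12.7, 10.6 and 9.77 TPM with A62T and 13.8, 14.4 and 10.7 TPM with dF109 in CB-6644, against 8.78, 7.71 and 11.7 TPM in the DMSO libraries of A62T, dF109 and the empty vector. The difference was 0.88 (SE 0.15, adjusted p = 0.000365) from A62T and 0.67 (SE 0.15, adjusted p = 0.00258) from dF109.

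Against the 3 DMSO libraries of the line, A62T cells in CB-6644 had 0 members higher and 2 lower in AsPC-1 (beside 10.8% and 1.98% of all genes) and 5 and 5 in T3M-4 (beside 45.4% and 4.6%), and dF109 cells 7 and 2 in AsPC-1 (beside 29.3% and 4.1%) and 15 and 1 in T3M-4 (beside 34.3% and 3.34%). The median of all genes lay at 0.10 and 0.33 with A62T and at 0.14 and 0.29 with dF109, and scaling gave 0 higher and 19 lower with A62T in AsPC-1 (beside 6.4% and 6.91%) and 0 and 31 in T3M-4 (beside 12.6% and 16.7%). With dF109 it gave 0 and 16 in AsPC-1 (beside 14.4% and 15.7%) and 3 and 11 in T3M-4 (beside 10.3% and 13.7%). These counts rest on few libraries: the lowest, with 1 left out, was 0 without A62T replicate 1 and 2 without dF109 replicate 1 in AsPC-1, and 4 without A62T replicate 3 and 8 without dF109 replicate 2 in T3M-4. The vectors themselves differed in DMSO. In AsPC-1 the members' median, relative to the mean of the 3 DMSO libraries, was 0.26 in the empty-vector library, -0.13 in the A62T and -0.12 in the dF109 library, and in T3M-4 -0.081, 0.053 and 0.058. There is 1 DMSO library per vector, so this spread between vectors cannot be told apart from that between libraries. Against the DMSO library of the same vector alone, the empty-vector cells had 15 members higher and 11 lower in AsPC-1 (beside 30.5% and 18.6% of all genes; median 0.019, in place of 0.27) and 18 and 5 in T3M-4 (beside 26.6% and 9.54%). The A62T cells had 0 and 0 in AsPC-1 (beside 0.0326% and 0.00816%) and 0 and 0 in T3M-4 (beside 0.813% and 0.403%), where few genes of any kind were called. The dF109 cells had 12 and 1 in AsPC-1 (beside 40.5% and 3.29%) and 9 and 2 in T3M-4 (beside 35.5% and 3.81%), with fewer higher members than the shares of all genes would give. These fits take the lone library to vary like the other groups. RRM2 was at -1.22 (SE 0.051, adjusted p = 3.12e-07) in empty-vector AsPC-1 cells by that measure, -0.23 (SE 0.051, adjusted p = 0.118) with A62T and -0.53 (SE 0.051, adjusted p = 0.00205) with dF109. In T3M-4 the same values were -0.86 (SE 0.1, adjusted p = 0.000414), -0.44 (SE 0.1, adjusted p = 0.0705) and -0.39 (SE 0.1, adjusted p = 0.0161).

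The direct contrast within CB-6644 found 31 members higher and 1 lower with the empty vector than with A62T in AsPC-1 (beside 32.3% and 18.9% of all genes; 28 and 5 after scaling, beside 26.2% and 27.1%), and 24 and 2 against dF109 (beside 26.3% and 20.9%). CCNE2 (0.88, SE 0.096, adjusted p = 1.57e-05), GINS4 and CDC6, which loads the MCM ring (0.76), had the highest values against A62T. These contrasts do not remove differences between the vectors in DMSO, so they do not measure the drug response alone. Against the DMSO library of the same vector, the members' median in AsPC-1 was 0.0195 with the empty vector and 0.0058 with A62T. By that measure CCNE2 changed by 0.56 and -0.018, GINS4 by 0.79 and 0.29, and CDC6 by 0.16 and -0.076, in that order. In T3M-4 11 were higher and 4 lower against A62T (beside 9.21% and 41.4%) and 3 and 6 against dF109 (beside 4.86% and 29.8%). The median of all genes was at -0.27 and -0.24 there, and scaling gave 32 higher and 1 lower (beside 21.6% and 21.8%) and 8 and 2 (beside 13.3% and 13.5%). TK1, the thymidine salvage kinase, was highest in both T3M-4 contrasts (0.69 and 0.42), and RRM2 lowest. Without A62T replicate 3 the T3M-4 count against A62T was 9 in place of 15. Leaving out 1 library moved the T3M-4 count against dF109 from 9 to between 3, without dF109 replicate 1, and 14, without empty-vector replicate 1.

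**Figure D5:**
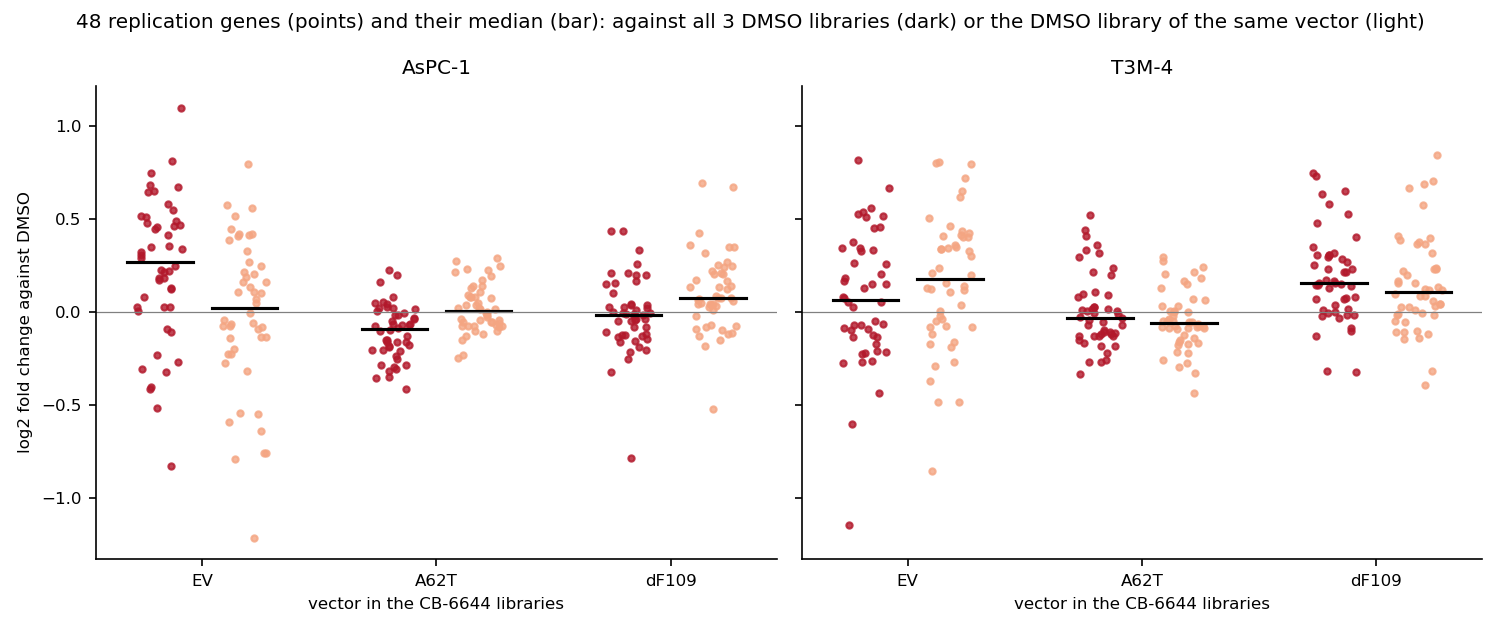
Log2 fold change in CB-6644 (y axis) of each of the 48 members (points, bars for medians) in AsPC-1 and T3M-4 cells with the empty vector, A62T or dF109 (x axis), against all 3 DMSO libraries (dark) or the DMSO library of the same vector (light). In empty-vector AsPC-1 cells the median is 0.27 against the 3 libraries and 0.019 against the library of the same vector.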

How the data were processed

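Poly-A RNA was sequenced from 183 libraries as single-end reads. Per the paper's methods and the labels, the authors quantified transcripts with kallisto against hg38, summed them to genes with tximport and removed low transcripts below a limit not given there. The deposited values are TPM, 8 tables with the same 19875 gene names. Because each library adds up to the same total, depth per sample and counting error are unknown, and groups of 2 to 6 libraries set the precision. The authors tested counts, which were not used here.

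Here log2(TPM + 1) was tested with limma 3.58.1 (R 4.3.3, moderated variance with a trend) in 16 fits, 1 per line and experiment, keeping genes whose mean over the fit reached 1 TPM, with Benjamini-Hochberg adjustment over all genes of a fit and a threshold of 0.05. All groups of an experiment entered its fit and shared the estimate of the spread. Of 51 comparisons, 39 set a knockout or CB-6644 group against sgRosa or DMSO and 12 set 2 treated groups against each other. The scripts were tested on simulated data with known changes.

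Alternatives were a pseudocount of 0.1 TPM, no filter, median-of-ratios scaling, a replicate block, leaving out each library, and, for AsPC-1 and T3M-4 in CB-6644, the DMSO library of the same vector alone. BxPC-3 sgRosa replicates 1 and 2 or 3 and 4 alone as control were added after seeing the data. Replicate numbers did not pair the samples in any of the 29 comparisons with 3 or more pairs.

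Genes named are, per comparison, the 3 lowest and 3 highest members, over all comparisons those called most often, and 1 or 2 members of a role with the largest change. The members and lists were chosen with earlier results of these data known. RefSeq promoters (GRCh38.p14) were matched by symbol.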

Additional observations from a re-analysis of the deposited data

Results flagged for a closer look

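In 60 tests of a single library far from the rest of its group, 3 stood out, where chance gives about 1 in 20. The members' median of sgRosa replicate 1 in SUIT-2 lay at -0.4905 relative to the controls, and the other 3 libraries between 0.1216 and 0.2169. Relative to the median of all genes, BxPC-3 experiment 1 sgKLF5 replicate 1 stood at -0.0382, the others between 0.0304 and 0.038, and H1048 DMSO replicate 3 at 0.036, the others between -0.0136 and -0.0065. The last 2 gaps are small beside the changes reported.

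The CB-6644 effect differed between T84, A375, H1048 and RH30 for 45 of the 48 members by the limma F test of line by treatment, beside 86.2% of all genes tested.

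For sgKLF5, every library of BxPC-3 experiment 2 lay above its controls (members' median 0.4177), while every library lay below them in AsPC-1 experiment 1 (-0.3972), T3M-4 experiment 1 (-0.3808) and AsPC-1 experiment 3 (-0.2484). For sgCDK1, every library lay above the controls in AsPC-1 (0.397) and below them in T3M-4 (-0.251). In CFPAC-1 the libraries labelled sgCDK1 lay above theirs (0.0262). The CDK1 mRNA of these libraries was not low, so no direction for the loss of CDK1 is drawn from them. These differences between lines were not tested.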

How the results depend on the processing

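The pseudocount of 0.1 TPM kept all 51 counts of called members within 1.5 times, and no direction of a named gene reversed under any alternative run. Without the filter on low values the count was 1 in place of 2 for A62T and 4 in place of 9 for dF109 in AsPC-1. The replicate block gave the same 1 and 4 and 15 in T3M-4 experiment 1 sgKLF5, and changed no other count of called members by over 1.5 times. Median-of-ratios scaling moved 15 counts: to 19 for A62T and 16 for dF109 in AsPC-1, 31 for A62T and 33 for the empty vector against A62T in T3M-4, 6 in T3M-4 experiment 1 sgKLF5, 6 in BxPC-3 experiment 2 sgCDK1, 1 for sgKLF5, 19 for sgRUVBL1, 1 for libraries labelled sgRpa3 against sgCDK1 and 17 for sgRUVBL1 against libraries labelled sgCDK1 in CFPAC-1, and 30 for sgCDK1, 41 for sgKLF5, 25 for sgRpa3, 1 for sgRpa3 against sgCDK1 and 29 for sgRUVBL1 against sgCDK1 in T3M-4 experiment 2. With the DMSO library of the same vector alone, A62T had 0 called members in AsPC-1 and 0 in T3M-4. In BxPC-3 experiment 2, sgRosa replicates 1 and 2 alone gave 1 for sgCDK1 and 11 for sgKLF5, and replicates 3 and 4 alone gave 15 for sgCDK1, 22 for sgRpa3, 7 for sgRUVBL1 and 4 for sgRUVBL2. Leaving out 1 library at a time gave the following counts of called members, lowest to highest, where any lay outside 1.5 times the count with all libraries: AsPC-1 A62T (0 to 9), AsPC-1 dF109 (2 to 14), BxPC-3 experiment 1 sgKLF5 (0 to 1), AsPC-1 experiment 1 sgKLF5 (16 to 32), T3M-4 experiment 1 sgKLF5 (0 to 15), T3M-4 A62T (4 to 12), T3M-4 EV against A62T (9 to 18), T3M-4 dF109 (8 to 20) and T3M-4 EV against dF109 (3 to 14). Further such ranges were those of AsPC-1 experiment 3 sgCDK1 (8 to 27), AsPC-1 experiment 3 sgRpa3 against sgCDK1 (5 to 12), AsPC-1 experiment 3 sgKLF5 (13 to 21), BxPC-3 experiment 2 sgCDK1 (0 to 8), BxPC-3 experiment 2 sgRUVBL1 against sgCDK1 (17 to 28), BxPC-3 experiment 2 sgRpa3 (25 to 40), BxPC-3 experiment 2 sgRUVBL2 (11 to 26), CFPAC-1 labelled sgRpa3 against labelled sgCDK1 (0 to 0) and CFPAC-1 sgRUVBL1 against labelled sgCDK1 (15 to 31). The remaining ones were those of CFPAC-1 sgKLF5 (0 to 1), CFPAC-1 labelled sgRpa3 (1 to 12), CFPAC-1 sgRUVBL2 (2 to 14), T3M-4 experiment 2 sgCDK1 (6 to 22), T3M-4 experiment 2 sgRpa3 against sgCDK1 (0 to 1), T3M-4 experiment 2 sgRUVBL1 against sgCDK1 (7 to 17), T3M-4 experiment 2 sgRpa3 (1 to 14) and SUIT-2 sgKLF5 (0 to 2). Of the named genes, 14 values lost their call under scaling, 8 without the filter, 5 under the block and 5 with the library of the same vector, and 118 when 1 library was left out, with 1086 unaltered. The sgCDK1 and sgRpa3 groups held 2 libraries each, the depth is unknown, and the cause of these shifts was not tested.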
